A study of Rattus norvegicus with 9 samples.

Results

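The plasminogen activators, their receptor and the proteins that restrain or dock them were followed in primary rat osteoblasts exposed to thrombin, with and without an inhibitor of the kinase MEK. The genes were the rows of the deposited table whose symbol equals 1 of 8 names: Plat, Plau, Plaur, Serpinb2, Serpinf1, Annexin, Anxa2 and S100a10. In all, 7 of these names matched 1 row each among 19085 rows, all 7 passed the filter on low counts that left 13256 genes, and no row carries the bare name Annexin. Messenger RNA was sequenced from calvarial osteoblasts of male Sprague-Dawley pups aged 24 hours, used at the first passage, although the labels give the knee as the tissue. All cells were kept for 7 days in osteogenic medium with 10% serum, β-glycerophosphate, ascorbic acid and dexamethasone. The control group had this medium alone, the thrombin group had thrombin at 20 U/mL in it, and the PD03 group had thrombin at 20 U/mL together with PD0325901 (PD03), which blocks MEK. The methods and the series' design text give PD03 at 0.1 μM and a protocol in the sample labels at 0.1 mM. Each group had 3 libraries, described as independent samples without saying whether they came from separate animals, so p-values measure the spread between these libraries. No group had PD03 without thrombin, and the comparisons share libraries, so they are not independent of each other.

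Plasminogen is a circulating zymogen that is cut into the broad protease plasmin by tissue plasminogen activator (Plat) and by urokinase (Plau). Urokinase works mainly while held at the cell surface by its receptor (Plaur), and the heterotetramer of annexin A2 (Anxa2) and S100A10 (S100a10) binds plasminogen and tissue plasminogen activator there. Serpins inhibit the activators, and plasmin acts on fibrin, on extracellular matrix and on latent growth factors, all of which osteoblasts handle during matrix turnover.

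RefSeq sequences of the 250 bases before the transcription start (assembly GRCr8) are shown for the 4 members that were called in at least 1 comparison below, because the groups differ at the level of their transcripts. The AP-1 motif TGANTCA is in capitals. It was searched together with the CRE motif TGACGTCA, the ETS motif CCGGAAGT and the SP1 motif GGGGCGGGG, on both strands and in the same 250 bases of every promoter in the table. The windows lie at chr15:3511988-3512237 on the minus strand for Plau, at chr1:89181113-89181362 on the plus strand for Plaur, at chr13:24055771-24056020 on the plus strand for Serpinb2 and at chr8:78986002-78986251 on the plus strand for Anxa2. The start used for Serpinb2 lies inside the RefSeq span of that gene, downstream of its first base.
Plau: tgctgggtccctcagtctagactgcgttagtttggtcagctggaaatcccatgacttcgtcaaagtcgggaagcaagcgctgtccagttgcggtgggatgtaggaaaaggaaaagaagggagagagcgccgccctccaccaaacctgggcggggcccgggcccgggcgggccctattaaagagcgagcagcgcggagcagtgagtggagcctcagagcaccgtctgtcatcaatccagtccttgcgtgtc
Plaur: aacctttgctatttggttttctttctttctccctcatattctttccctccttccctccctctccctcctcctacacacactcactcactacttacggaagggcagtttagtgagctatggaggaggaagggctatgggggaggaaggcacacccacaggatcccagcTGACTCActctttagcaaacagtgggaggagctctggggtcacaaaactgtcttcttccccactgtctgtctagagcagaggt
Serpinb2: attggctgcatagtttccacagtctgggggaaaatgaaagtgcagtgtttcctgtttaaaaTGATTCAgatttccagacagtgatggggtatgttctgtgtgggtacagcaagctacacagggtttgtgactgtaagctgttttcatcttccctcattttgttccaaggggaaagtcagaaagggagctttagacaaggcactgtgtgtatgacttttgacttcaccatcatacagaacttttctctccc
Anxa2: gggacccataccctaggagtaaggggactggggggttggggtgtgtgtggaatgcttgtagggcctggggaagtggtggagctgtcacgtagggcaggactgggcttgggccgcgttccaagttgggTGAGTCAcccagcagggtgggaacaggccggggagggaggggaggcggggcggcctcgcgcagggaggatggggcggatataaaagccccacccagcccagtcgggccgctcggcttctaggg
An AP-1 match stands in 3 of these 4 windows. Its first base lies 83 bases before the start in Plaur, 189 bases in Serpinb2 and 123 bases in Anxa2. The Plau window holds none of the 4 motifs, nor does the window of Serpinf1, which is not shown. No window was at hand for Plat or S100a10, so those members were not searched. Among 33469 promoter windows of this length, 6.34% hold the AP-1 motif, 1.59% the CRE motif, 3.10% the ETS motif and 9.0% the SP1 motif. These matches describe letters in a window and were not tested against the expression values. The 4 windows shown were picked by the calls, and Serpinb2 by calls from which nothing is read. The 3 of 4 can therefore not be set against these shares.

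In the libraries themselves, total counts ran from 15447832 to 19841468, and the biological coefficient of variation was 4.28%. Of the 7 tested osteoblast markers, 1 was called higher and 1 lower in thrombin against control, where 8.06% of all tested genes were called. In PD03 against thrombin 3 were higher and 2 lower, against 15.9% of all genes. Col1a1, the main collagen gene of bone matrix, was at 47400 CPM (counts scaled to library total and TMM factor) in control, 42900 in thrombin and 72100 in PD03 libraries. It was called higher in PD03 than in thrombin (log2 fold change 0.75). Runx2, a transcription factor of the osteoblast lineage, went the other way, at 42.8, 51.1 and 32.1 CPM, and was called lower in PD03 than in thrombin (-0.67). Spp1, the marker called higher with thrombin (log2 fold change 1.54), was at 63.7, 185 and 53.1 CPM. It was called lower in PD03 than in thrombin (-1.80). Alpl, an early osteoblast marker, was at a mean of 1.67 CPM in control, 0.345 in thrombin and 3.11 in PD03 libraries, with 6 to 62 counts per library. It was called lower in thrombin than in control (log2 fold change -2.24) and higher in PD03 than in thrombin (3.14). Alpl did not pass the filter on low counts through the thrombin group. Its differences from thrombin were therefore built into its being tested, and nothing is read from these calls. Of the later markers, Bglap was at no more than 0.155 CPM as a group mean and Ibsp at 0 or 1 count in every library. The 8 myeloid markers summed to 20.4 to 23.7 CPM in control, 29 to 32.8 in thrombin and 17.5 to 18.6 in PD03 libraries, most of it Cd14, while Ptprc had at most 6 counts and Aif1 at most 1 count in any library. The 4 osteoclast markers in the table, nearly all Ctsk, summed to 132 to 142, 98.7 to 107 and 169 to 178 CPM in the same order, with Dcstamp and Ocstamp at 0 or 1 count. The 4 endothelial markers in the table summed to 7.89 to 8.90, 7.29 to 9.75 and 12 to 14 CPM. The 5 chondrocyte markers in the table summed to 92.5 to 103, 68.7 to 73.8 and 81.1 to 88.3 CPM, and the 4 glial ones to at most 7.45 CPM. These sums moved with the groups, their part in the results below was not tested, and in bulk RNA fewer cells of a type and less RNA per cell cannot be told apart.

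In the comparison of thrombin with control, which asks what thrombin alone did to the system, the urokinase receptor rose 1.93-fold. Plat, Serpinf1, Anxa2 and S100a10 differed by at most 0.07 on the log2 scale. A gene was called at an adjusted p under 0.05 (edgeR's quasi-likelihood test, Benjamini-Hochberg over all 13256 tested genes) and an absolute log2 fold change above 0.58. By that rule 2 of 7 members were called, where 8.06% of all tested genes were called: Plaur higher and Serpinb2 lower. Serpinb2 passed the filter on low counts only through the control group, so its difference from control was built into its being tested, and nothing is read from its calls or from the counts that include it. Without the fold threshold 3 of 7 were past the adjusted p, against 28.7% of all genes. In the comparison of PD03 with thrombin, which asks what the inhibitor did to thrombin-treated cells, 3 of 7 members were called, all lower: Plau, Plaur and Anxa2. All genes tested gave 15.9% called in that comparison, and 49.8% without the fold threshold, against 5 of 7 members. In PD03 against control the 1 member called of 7 was Serpinb2, with the limit just given, against 8.97% of all genes, and 6 of 7, Serpinb2 included, passed without the fold threshold, against 39.9%. These shares describe 7 genes and do not set them apart from the rest.

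**Figure D1:**
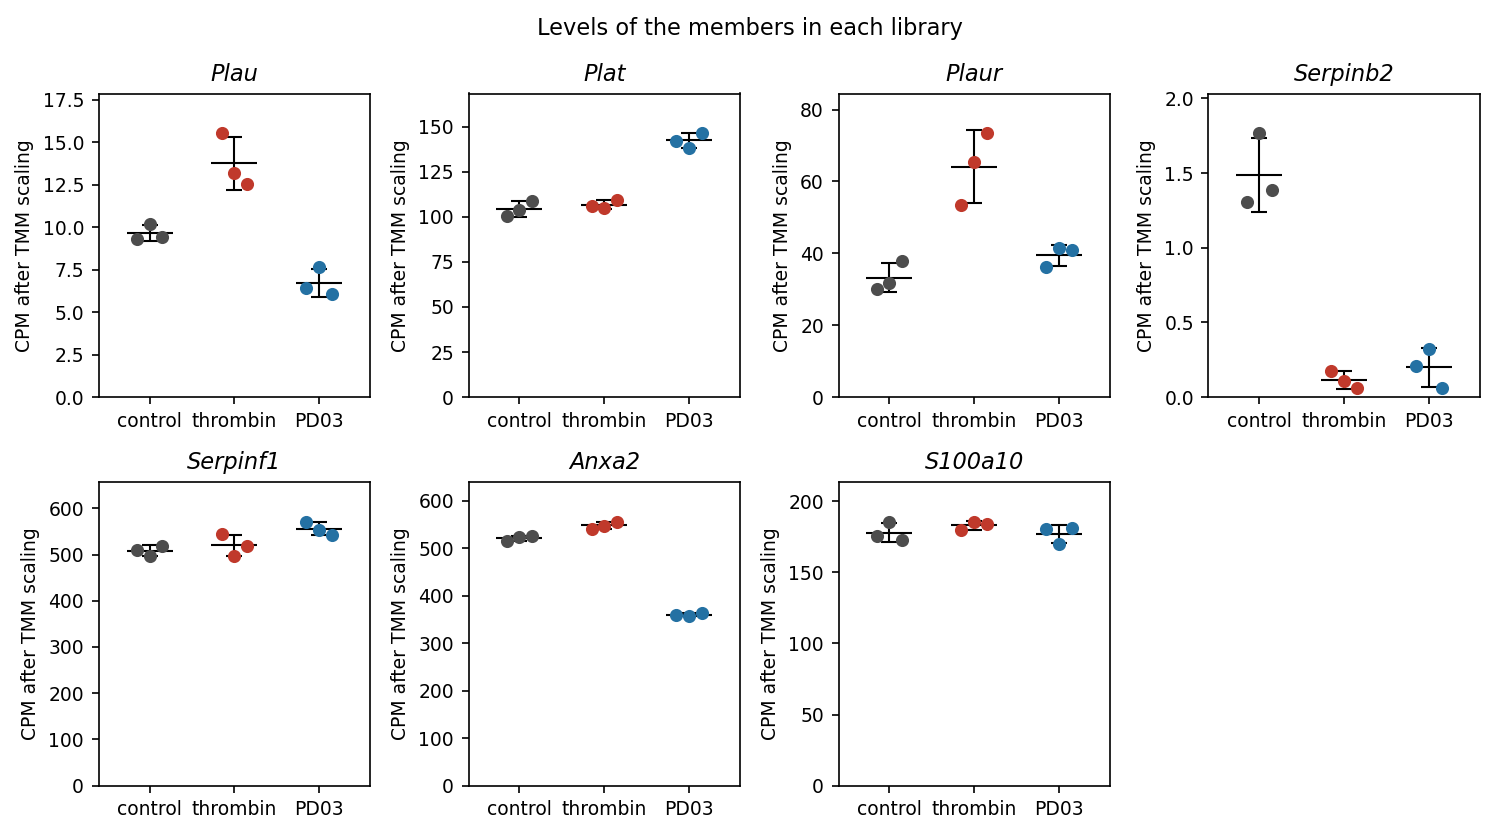
Normalised expression in CPM (vertical axes, each panel on its own scale) of the 7 members in each of the 9 libraries, by group; the points are libraries, long lines the group means and error bars 1 SD. Plaur is highest in the 3 thrombin libraries, Plau is lowest and Plat highest in the 3 PD03 libraries, Anxa2 is lowest in the PD03 libraries, and Serpinb2 is at 22 to 28 counts per control library against 1 to 5 elsewhere.

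Among the activators, Plau (ENSRNOG00000010516), the urokinase gene, was called lower in PD03 than in thrombin libraries. The control libraries had 9.30, 10.2 and 9.41 CPM, the thrombin libraries 15.5, 13.2 and 12.5 CPM, and the PD03 libraries 6.41, 7.64 and 6.06 CPM. All thrombin libraries stood above all control libraries and all PD03 libraries below both, with no overlap between any groups. The thrombin effect was a log2 fold change of 0.51 (SE 0.12, 1.43-fold, edgeR adjusted p = 0.000698), short of the fold threshold and so not called. PD03 lowered Plau against thrombin by a log2 fold change of -1.04 (SE 0.12, a 2.05-fold fall, edgeR adjusted p = 2.40e-09), which was called. Against control the PD03 group was at -0.52 (SE 0.13, edgeR adjusted p = 0.00109), not past the fold threshold. That last value is close to the threshold: it passed with library totals as the scaling, at -0.64, and without PD03 replicate 2, at -0.63. Plau has only 99 to 261 counts per library.

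Tissue plasminogen activator, Plat (ENSRNOG00000019018), was the more abundant activator per length, at a mean of 37.4 FPKM in control libraries against 2.83 for Plau. Control libraries had 100.5, 103.6 and 108.8 CPM, thrombin libraries 105.8, 104.8 and 109.6 CPM, and PD03 libraries 142.3, 138.3 and 146.4 CPM. The control and thrombin libraries overlapped, and every PD03 library was above all of them. The log2 difference between thrombin and control was 0.03 (95% interval -0.06 to 0.13, edgeR adjusted p = 0.641). PD03 libraries had a log2 fold change of 0.42 against thrombin (SE 0.04, 1.33-fold, edgeR adjusted p = 1.85e-10) and of 0.45 against control (SE 0.05, 1.37-fold, edgeR adjusted p = 4.91e-11), both below the fold threshold. In RefSeq GRCr8 the Plat span overlaps those of the kinase gene Ikbkb and of a pseudogene, and the Plau span overlaps that of a long noncoding RNA. Neither the methods nor the labels say whether the counting used strand, so reads of overlapping genes cannot be told apart. Ikbkb itself was at 39.8 CPM in control, 39.7 in thrombin and 40.2 in PD03 libraries.

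The count ratio of the activators, Plau to Plat within a library, does not depend on how libraries were scaled. It was 0.0925, 0.0982 and 0.0865 in control, 0.147, 0.126 and 0.114 in thrombin and 0.0450, 0.0553 and 0.0414 in PD03 libraries. The thrombin libraries had the highest ratios and the PD03 libraries the lowest, with no overlap. In log2 the mean ratio was 0.47 higher in thrombin than in control, and in PD03 it was -1.45 against thrombin and -0.98 against control. Each difference had an exact two-sided permutation p of 0.1 with n = 3 against 3, which is the smallest p this design allows, and 0.12 after adjustment over 6 ratio tests.

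**Figure D2:**
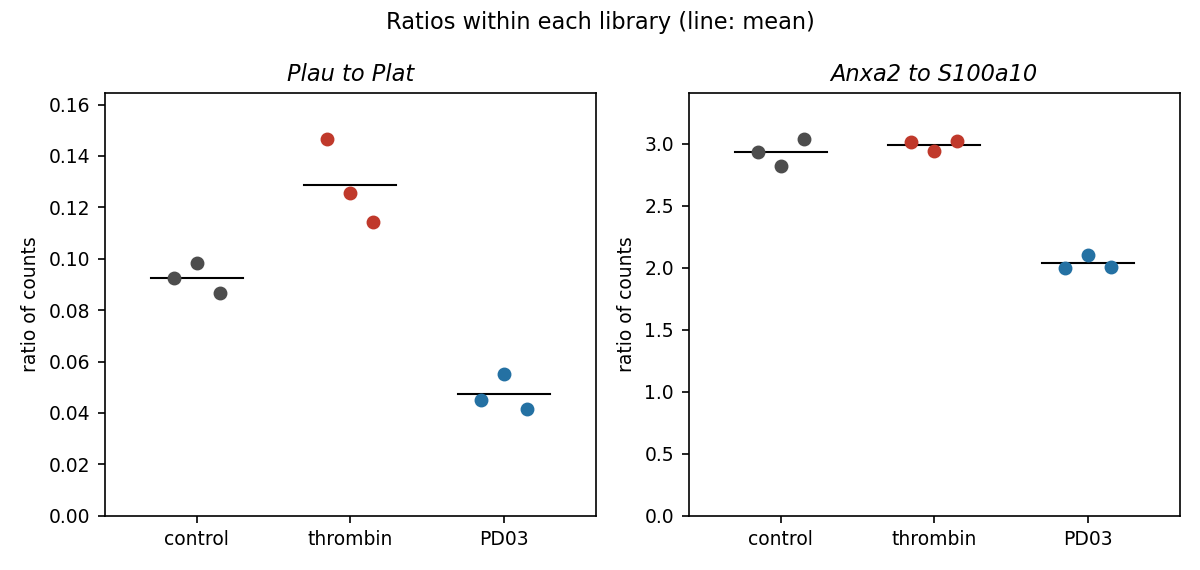
Within-library ratio of raw counts for Plau to Plat and for Anxa2 to S100a10 (vertical axes, no unit), with 1 point per library and lines for the group means. The Plau to Plat ratio is between 0.0414 and 0.0553 in PD03 libraries and at or above 0.0865 in all others; the Anxa2 to S100a10 ratio is 2.00 to 2.10 in PD03 libraries and 2.82 to 3.04 in the others.

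Plaur (ENSRNOG00000037931), the receptor that holds urokinase at the cell surface, had the clearest rise with thrombin. Control libraries had 30.0, 31.8 and 37.9 CPM, thrombin libraries 53.4, 65.5 and 73.4 CPM, and PD03 libraries 36.1, 41.4 and 40.8 CPM. Every thrombin library was above all others, while the PD03 and control ranges overlapped. Thrombin raised it by a log2 fold change of 0.95 (SE 0.08, edgeR adjusted p = 9.77e-13). PD03 lowered it against thrombin by -0.71 (SE 0.08, a 1.63-fold fall, edgeR adjusted p = 7.22e-10). Tested against the fold threshold itself with edgeR's glmTreat, that fall had an adjusted p of 0.186. Against control, PD03 libraries were at a log2 difference of 0.25 (SE 0.09, edgeR adjusted p = 0.0201), which is under the fold threshold. That difference did not pass the adjusted p with DESeq2 (0.25, DESeq2 adjusted p = 0.196). Nor did it with library totals as the scaling (0.13, edgeR adjusted p = 0.222).

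Anxa2 (ENSRNOG00000010362) encodes the calcium-dependent, membrane-binding subunit of the plasminogen-binding heterotetramer, and S100a10 (ENSRNOG00000023226) its small partner. Anxa2 stood at 514.1, 522.4 and 525.0 CPM in control, 540.9, 546.1 and 555.8 CPM in thrombin and 359.6, 357.4 and 363.4 CPM in PD03 libraries. The PD03 libraries were well below the other 6, and the thrombin libraries slightly above the control libraries. The log2 fold change was 0.07 for thrombin against control (SE 0.03, edgeR adjusted p = 0.0952), -0.60 for PD03 against thrombin (SE 0.03, a 1.52-fold fall, edgeR adjusted p = 3.98e-19) and -0.53 for PD03 against control (SE 0.03, edgeR adjusted p = 5.22e-17). The fall against thrombin passed the fold threshold narrowly, with a glmTreat adjusted p of 0.668. The difference against control missed it, and would pass with library totals as the scaling, at -0.65.

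S100a10 was at 175.4, 185.2 and 172.6 CPM in control, 179.6, 185.6 and 183.7 CPM in thrombin and 180.1, 169.8 and 181.3 CPM in PD03 libraries. The ranges of all 3 groups overlapped. The log2 differences were 0.04 (95% interval -0.04 to 0.13) for thrombin against control, -0.05 (-0.13 to 0.04) for PD03 against thrombin and -0.0048 (-0.09 to 0.08) for PD03 against control, with edgeR adjusted p values of 0.497, 0.358 and 0.942. The count ratio of Anxa2 to S100a10 was 2.93, 2.82 and 3.04 in control, 3.01, 2.94 and 3.03 in thrombin and 2.00, 2.10 and 2.01 in PD03 libraries. The control and thrombin ratios overlapped, and those of the PD03 libraries lay below both. In log2 the mean ratio differed by -0.56 between PD03 and thrombin (exact permutation p = 0.1, the smallest possible), by -0.53 between PD03 and control (exact permutation p = 0.1) and by 0.03 between thrombin and control (exact permutation p = 0.6).

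Serpinb2 (ENSRNOG00000002460; plasminogen activator inhibitor type 2) is a serpin of the clade B group, mostly kept inside cells, and it was the only dedicated activator inhibitor among the members. It had 24, 28 and 22 counts in the control, 3, 2 and 1 in the thrombin and 4, 5 and 1 in the PD03 libraries. All control libraries were above all others, and the thrombin and PD03 counts overlapped. It passed the filter on low counts only through the control group, so a difference there was built into its being tested. The fitted log2 fold changes of -3.61 for thrombin against control (SE 0.54) and -2.86 for PD03 against control (SE 0.49) are therefore given as a description, with no p. As count ratios over the summed libraries, control was 12.9 times thrombin and 7.49 times PD03, which describes the same built-in difference. PD03 against thrombin was 0.74 in log2 (95% interval -0.89 to 2.38, edgeR adjusted p = 0.467). The count ratio of PD03 to thrombin was 1.72 (exact 95% interval 0.566 to 5.75, which covers counting error only).

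Serpinf1 (ENSRNOG00000003172; pigment epithelium-derived factor) belongs to the serpin family by structure without inhibiting proteases, and its loss in people causes a brittle bone disease. Control libraries had 510.8, 496.7 and 518.7 CPM, thrombin libraries 543.4, 497.7 and 517.9 CPM, and PD03 libraries 571.3, 553.7 and 543.0 CPM. The thrombin range overlapped both other groups, and the PD03 libraries were above the control libraries. The log2 differences were 0.03 for thrombin against control (SE 0.04, edgeR adjusted p = 0.583), 0.10 for PD03 against thrombin (SE 0.04, edgeR adjusted p = 0.0203) and 0.13 for PD03 against control (SE 0.04, edgeR adjusted p = 0.00326). None passed the fold threshold, and with library totals as the scaling the difference between PD03 and thrombin was -0.00092. With that scaling the difference between PD03 and control was 0.012 (edgeR adjusted p = 0.809).

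**Figure D3:**
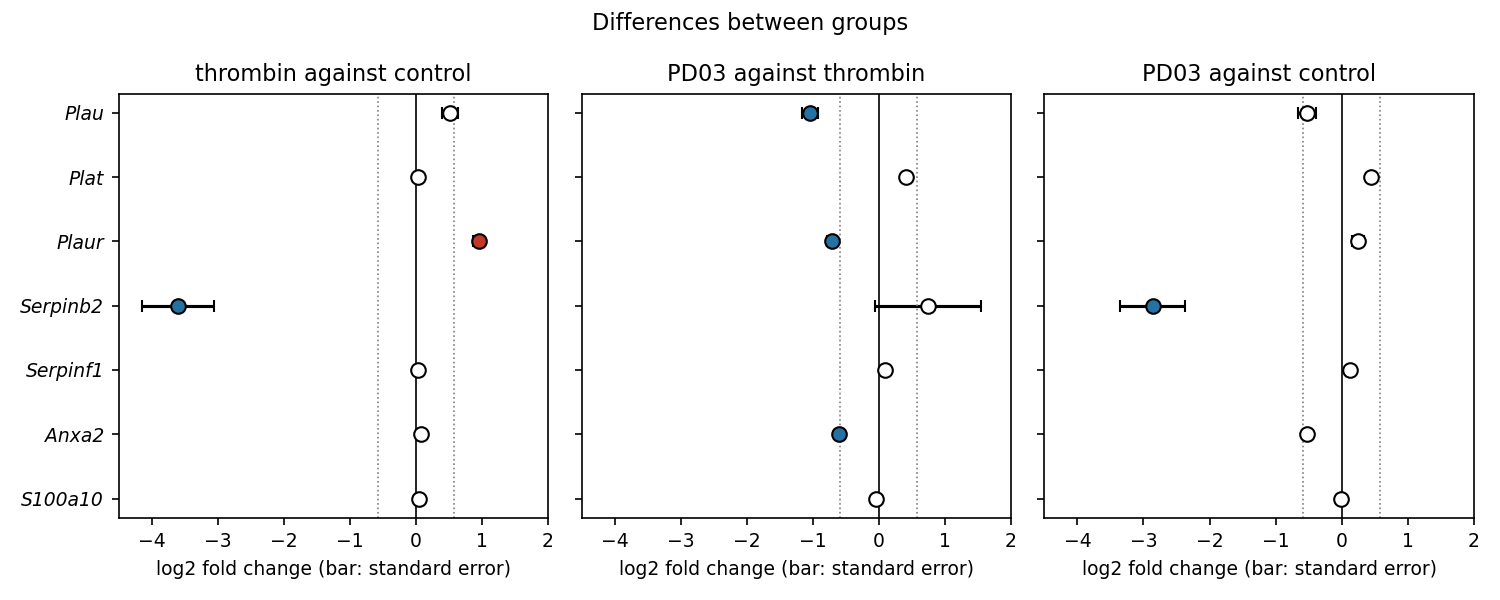
Log2 fold changes of the 7 members in the 3 comparisons, with bars for the standard error from edgeR, dotted lines at the fold threshold of 0.58 on either side, and filled points for called members (red higher, blue lower). Serpinb2 has the widest bars; Plau, Plaur and Anxa2 lie beyond the lower line in PD03 against thrombin, and Plat and Serpinf1 stay between the lines.

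Levels between genes were set side by side per length, as the deposited FPKM values. In control libraries the mean FPKM was 268.7 for Serpinf1, 212.0 for S100a10, 50.3 for Anxa2, 37.4 for Plat, 12.6 for Plaur, 2.83 for Plau and 0.796 for Serpinb2. No neighbours in that order overlapped between libraries. Serpinf1 and S100a10 were above 98.6% and 98.2% of the tested genes, and Plau above 28.4%. Thrombin libraries kept the order, with Plaur at 24.0 FPKM and Plau at 3.99. In PD03 libraries Plat, at 45.9 to 48.3 FPKM, was above Anxa2, at no more than 32.3. The FPKM of Anxa2 was computed on a length of 10.66 kb, far longer than its coding sequence, against 0.864 to 3.506 kb for the other members, so its place in the order rests on that length.

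**Figure D4:**
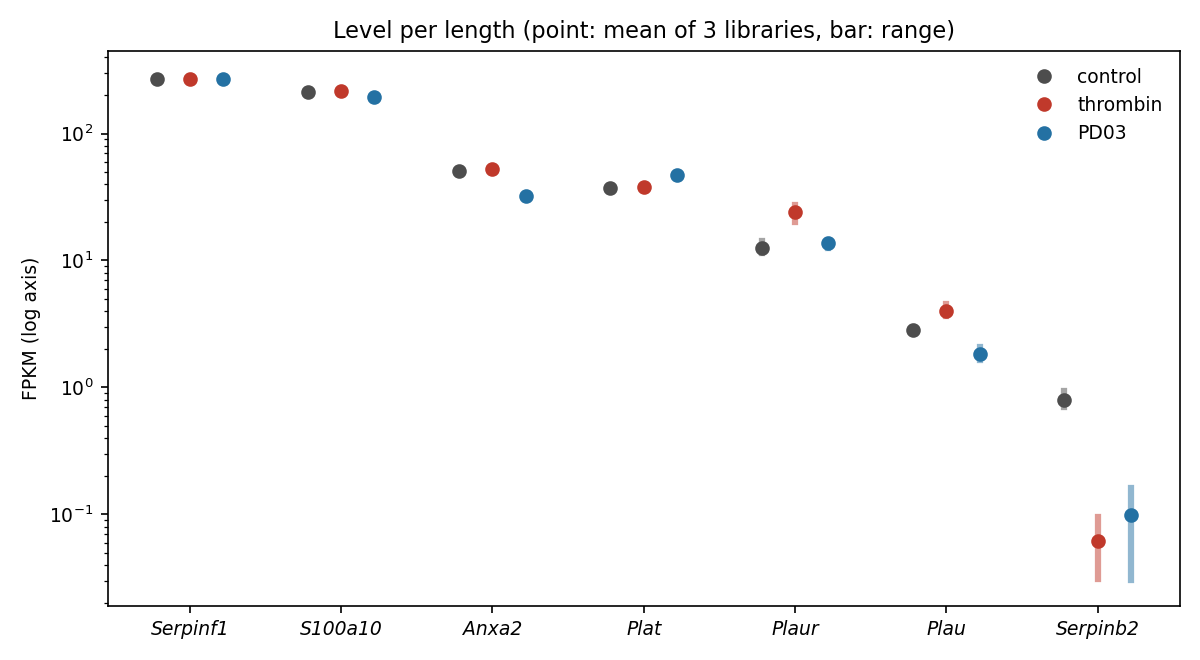
Deposited FPKM of the 7 members (vertical log axis), by group, with points for the mean of 3 libraries and bars for their range. Serpinf1 and S100a10 are at or above 187.4 FPKM in every library, Plau is at most 4.52 FPKM, and Plat and Anxa2 change places in the PD03 libraries.

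Among other parts of the system, plasminogen itself, Plg, had 0 to 5 counts per library, and Serpinf2, the main plasmin inhibitor of blood, had 1 to 11 counts.

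The other genes of the system were taken from lists chosen with earlier results of these data known. Of the 12 tested serpins outside the members, thrombin against control had 0 called higher and 3 lower (8.06% of all tested genes were called, in either direction), with a median log2 difference of -0.31 where the median of all genes was -0.01. PD03 against thrombin had 4 called higher and 1 lower (15.9% of all genes called, median 0.26, against 0.01 for all genes). PD03 against control had 1 higher and 0 lower (8.97% of all genes called, median -0.09), which became 0 and 1 with library totals as the scaling. The 3 lower with thrombin were Serping1, Serpini1 and Serpinb10, which was chosen after its values were seen and had 11 to 14 counts in control, 0 to 4 in thrombin and 6 to 12 in PD03 libraries. Like Serpinb2, Serpinb10 passed the filter through its control counts, so its lower call with thrombin was built into its being tested. Serping1, the C1 inhibitor, which also restrains plasma kallikrein, was at 197 CPM in control, 90.1 in thrombin and 164.9 in PD03 libraries. Thrombin lowered it by -1.13 in log2 (SE 0.04, edgeR adjusted p = 7.26e-24), and PD03 raised it against thrombin by 0.87. Serpini1, the neuronal serpin that inhibits tissue plasminogen activator, was at 2.80, 0.783 and 4.53 CPM in the 3 groups, called lower with thrombin (-1.82) and higher with PD03 against thrombin (2.52). Serpine2, an inhibitor of thrombin and urokinase, was at 301.7, 381.1 and 252.4 CPM, with -0.59 for PD03 against thrombin. Serpinh1, a collagen chaperone and no protease inhibitor, was higher by 0.60 for PD03 against thrombin, a call lost with library totals as the scaling.

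The list of plasminogen and its activation had 7 tested genes. With thrombin against control 1 was called higher and 1 lower (8.06% of all genes called; median 0.04), and PD03 against thrombin had 1 higher and 3 lower (15.9% of all genes; median 0.17). Tfpi2, a Kunitz inhibitor of plasmin, was at 1.07 CPM in control, 3.28 in thrombin and 0.855 in PD03 libraries, with log2 fold changes of 1.62 and -1.96. A2m, the broad protease trap alpha-2-macroglobulin, went the other way, at 26.6, 12.8 and 35.4 CPM with -1.05 and 1.46. Thbd (thrombomodulin), a surface receptor of thrombin, was at 124 CPM in control, 165.8 in thrombin and 64.6 in PD03 libraries, with -1.36 for PD03 against thrombin and -0.94 against control. Eno1, a glycolytic enzyme that also binds plasminogen at the surface, was at 1257, 1653 and 1011 CPM, with -0.71 for PD03 against thrombin.

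Receptors and clearance proteins of the activators counted 16 tested genes. Thrombin against control had 1 called higher and 0 lower (8.06% of all genes called; median 0.24), PD03 against thrombin 1 higher and 1 lower (15.9% of all genes; median 0.05; 1 and 2 with library totals), and PD03 against control 1 higher (8.97% of all genes; median 0.23). Itgb3, an integrin subunit of the vitronectin receptor, rose from 14.5 to 22.8 CPM with thrombin, by 0.66 in log2, a call lost in the FPKM values with 1 added. Vldlr, a clearance receptor of activator and serpin complexes, was at 6.70, 9.29 and 24.4 CPM, with 1.39 for PD03 against thrombin. Lrp8, a related receptor, was at 45.7, 56.2 and 33.3 CPM, with -0.76.

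Among the 22 tested genes for proteins that plasmin or the activators cut, thrombin against control had 5 called higher and 5 lower (8.06% of all genes called; median 0.16), and PD03 against thrombin 5 higher and 5 lower (15.9% of all genes; median -0.35). The first split was 4 and 5 with library totals as the scaling and 3 and 3 in the FPKM values with 1 added, and the second was 5 and 9 with library totals. PD03 against control had 3 called higher and 3 lower (8.97% of all genes; median 0.10), and 0 and 4 with library totals: Mmp14, Igfbp5 and F2r were higher and Hgf, Mmp13 and Ltbp1 lower. Mmp9, Spp1, Tgfb1, Mmp3 and Bdnf were the 5 higher with thrombin, and Mmp13, Igfbp5, Pdgfd, Lama5 and Igfbp3 the 5 lower. The libraries of Mmp3 overlapped between thrombin and control (edgeR adjusted p = 0.0461). Of the 10 called in PD03 against thrombin, Igfbp5, Pdgfd, F2r, Lama5 and Igfbp3 were higher and Hgf, Mmp13, Mmp9, Ltbp1 and Spp1 lower. Tgfb1, Mmp3, Bdnf, Mmp13, Mmp14, Pdgfd, Lama5 and F2r were chosen after their values were seen. F2r, the thrombin receptor PAR1, was at 281.2 ± 11.7 CPM (SD, n = 3) in control, 241.8 ± 4.52 in thrombin and 450.6 ± 3.18 in PD03 libraries. Tgfb1, the growth factor that plasmin can release from its latent form, was at 68.4 ± 0.395, 105.7 ± 3.78 and 75.4 ± 2.68 CPM. Mmp13, a collagenase made as a zymogen, was at 12.3 ± 3.19, 6.62 ± 0.421 and 3.72 ± 0.148 CPM. Igfbp5, a matrix-bound carrier of insulin-like growth factors, was at 553.5 CPM in control, 134.5 in thrombin and 832.4 in PD03 libraries. Its log2 fold changes were -2.04 and 2.63. Igfbp3, a related carrier, was at 44.3, 17.7 and 32.1 CPM, with -1.33 and 0.86. Hgf, the zymogen of hepatocyte growth factor, was at 33.6, 33.3 and 10.1 CPM, with -1.74 for PD03 against thrombin. Ltbp1, which anchors latent TGF-β to the matrix, was at 223.7, 265.2 and 114.5 CPM, with -1.21 in the same comparison.

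**Figure D5:**
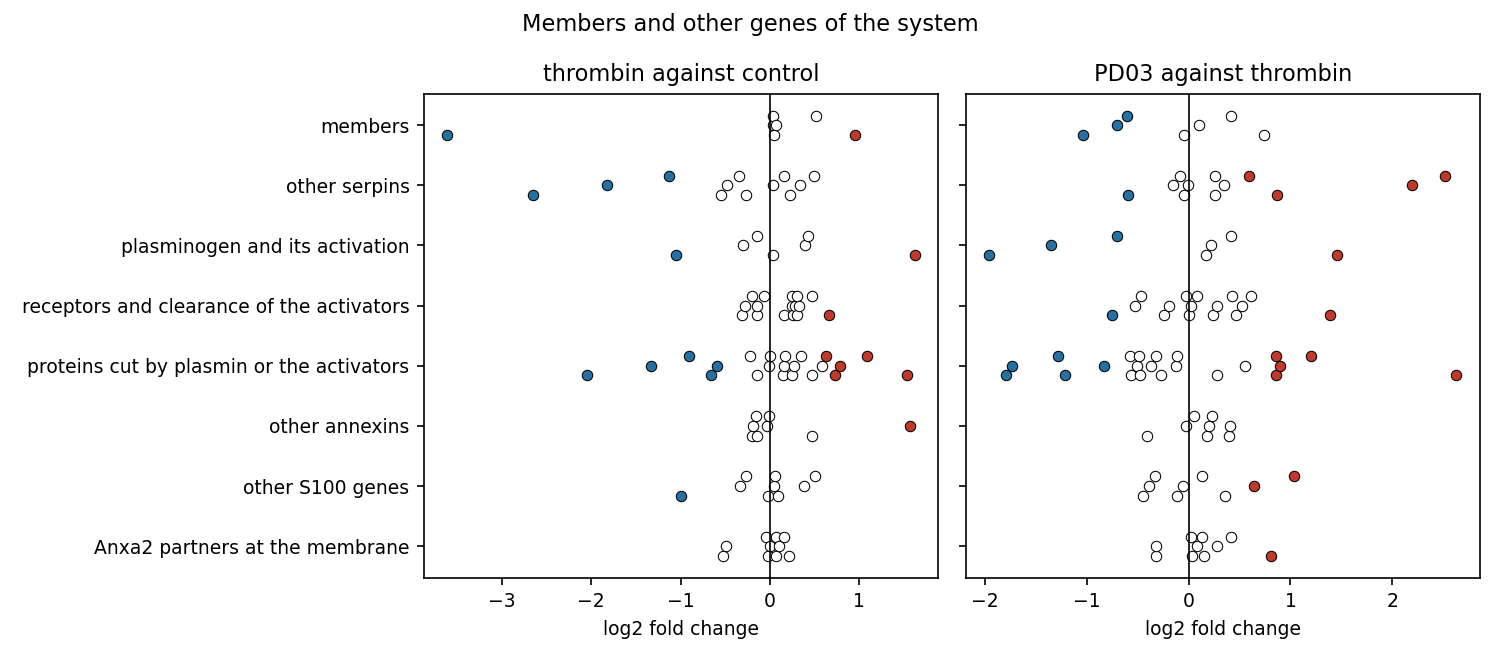
Log2 fold changes of the tested genes of each list (1 point per gene) in thrombin against control and in PD03 against thrombin, with filled points for called genes (red higher, blue lower) and a line at 0. The other serpins have 3 blue points on the left and 4 red and 1 blue on the right.

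Genes with the most similar pattern were ranked for each member by Pearson's r of log2 CPM over the 9 libraries, among 10269 tested genes with at least 5 CPM on average. These values describe likeness over 9 points that share group and library, and say nothing of shared function. Plat was most like Slc38a10 (r = 0.992) and Nbl1 (0.992), Plau most like Dram1 (0.990) and Larp1 (0.983), and Plaur most like Tnfaip6 (0.980) and Jcad (0.976). Anxa2 was most like Col15a1 (0.998) and Flrt2 (0.997), and Serpinb2 most like Col5a3 (0.971) and Nherf2 (0.968). With 1 to 5 counts of Serpinb2 in thrombin and PD03 libraries, its r mainly reflects control against the rest, the difference through which it was tested. Serpinf1 came nearest to Zdhhc16 and Fads3 (both 0.970), and S100a10 to Higd2a (0.913). An r above 0.95 was reached with 455 genes for Anxa2, 241 for Plat, 129 for Plau, 34 for Plaur, 13 for Serpinb2, 4 for Serpinf1 and 0 for S100a10.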

How the data were processed

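The 9 libraries of poly(A) RNA came from primary rat osteoblasts, 3 for each group (control, thrombin, PD03). The methods describe trimming with fastp, alignment with HISAT2 to Rnor_6.0, counting with featureCounts and testing with DESeq2, while the submitters' processing notes name mRatBN7.2, HISAT2 and HTSeq 0.13.5. Neither the annotation release nor the strandedness was stated. The authors deposited a raw count and an FPKM value per gene and library; the counts were used for all tests, and the deposited FPKM values for levels between genes and as an alternative.

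Genes were kept by filterByExpr with a minimum count of 10, libraries were scaled by TMM, and a quasi-likelihood model of all 9 libraries was fitted with edgeR 4.0.16 in R 4.3.3. P-values were adjusted by Benjamini-Hochberg over all 13256 tested genes. CPM values use the library total multiplied by the TMM factor. Ratios within libraries were compared with exact two-sided permutation tests. Alternatives used DESeq2 1.42.0, limma 3.58.1, other scalings, filters and thresholds, a block for the replicate number, and omission of single libraries. The procedure was tested on simulated data. Correlations of deviations between libraries with the same replicate number were -0.0456 to 0.0523.

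Genes are named when they are members, or are among at most 6 per list that were called in either of the first 2 comparisons (thrombin against control, PD03 against thrombin), by the size of the change, with at least 1 CPM in the highest group. Outside this rule, Serpinb10, Anxa8 and some genes for proteins cut by plasmin are named and marked as chosen after their values were seen. Cell type markers, Plg, Serpinf2 and Ikbkb are also named outside it. The 2 most alike genes per member were ranked among genes with at least 5 CPM. A result for 1 gene is not reported here. Members and lists were chosen with earlier results of these data known. Of promoters, only the 250 bases before the start were searched. Python 3.11.15 with matplotlib 3.10.9 drew the figures.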

Additional observations from a re-analysis of the deposited data

How the results depend on the processing

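Thrombin against control had 2 members called, PD03 against thrombin 3, and PD03 against control 1, where 1068, 2110 and 1189 of all 13256 tested genes were called. The last count was 3 with library totals as the scaling, 2 with FPKM plus 1 and 3 with FPKM plus 0.1. In these settings 1378, 676 and 1316 of 13256 genes were called. The members added were Anxa2 (-0.65, -0.63 and -0.65) and, with library totals and FPKM plus 0.1, Plau (-0.64 and -0.62). Library totals moved the median of all genes by -0.12 in that comparison. A mean count of at least 50 removed Serpinb2 and gave 1 member when thrombin was compared with control and 0 when PD03 was. All genes then gave 736 and 817 called of 11030. For PD03 against thrombin, glmTreat left 1 (Plau), a log2 threshold of 1 left 1, and no fold threshold gave 5. Of all 13256 genes these settings called 1051, 935 and 6608, so the members' counts moved along with those of all genes. A log2 threshold of 1 left 1 in thrombin against control (505 of all genes), and no fold threshold gave 6 in PD03 against control (5289 of all genes). Leaving out 1 library at a time gave 1 to 2 members for PD03 against control and did not change the other counts. It was 2 only without PD03 replicate 2, where Plau was at -0.63 and 1194 of 13447 genes were called.

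Serpinf1 in PD03 against thrombin changed sign to -0.00092 with library totals, -0.00071 with FPKM plus 1 and -0.00071 with FPKM plus 0.1. S100a10 in PD03 against control changed sign to 0.018 without Control replicate 2 and to 0.017 without PD03 replicate 2, in a range of -0.032 to 0.018 over single libraries left out. With library totals, S100a10 in PD03 was at -0.15 against thrombin (edgeR adjusted p = 0.00243) and at -0.12 against control (edgeR adjusted p = 0.0134). The replicate number as a block gave 2, 3 and 1 members called (1067, 2103 and 1187 of 13256 genes) and changed no call. Same-numbered libraries showed no shared deviation, which cannot exclude that the numbers pair the samples. A paired permutation of 3 ratios could not go below p = 0.25. With 3 libraries a group, Plau at 99 to 261 counts and Serpinb2 at 1 to 28 counts carry the widest errors. The mean count filter and the thresholds act by construction; the cause of the other changes was not tested.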

Other observations

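The shares of all tested genes called, for comparison with the families below, were 8.06% in thrombin against control, 15.9% in PD03 against thrombin and 8.97% in PD03 against control. Counts this small do not set a family apart from them. Of 8 other tested annexins, 1 was called higher in thrombin against control and 0 in PD03 against thrombin, with medians of -0.09 and 0.19. The called gene was Anxa8, chosen here after its values were seen and also the 1 called in PD03 against control; both calls were lost in the FPKM values with 1 added. It was at 0.229 CPM in control, 0.670 in thrombin and 0.891 in PD03 libraries, and it passed the filter on low counts through the latter groups, so a difference from control was built in. Of 9 other tested genes whose symbol starts with S100, S100pbp included, 1 was called lower with thrombin and 2 higher with PD03 against thrombin. S100a16, a calcium-binding protein of the S100 family, was at 31.7 CPM in control, 15.9 in thrombin and 32.4 in PD03 libraries, with log2 fold changes of -0.99 and 1.04 (edgeR adjusted p = 2.74e-12 and 3.18e-13). S100a1 was at 3.93, 3.12 and 4.90 CPM, and its call of 0.64 in PD03 against thrombin was lost with library totals as the scaling. Of 10 tested partners of annexin A2, 1 was called higher in PD03 against thrombin: Tagln, an actin-binding protein of contractile cells, at 771 CPM in control, 769 in thrombin and 1346 in PD03 libraries, with 0.81 (edgeR adjusted p = 9.78e-22).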
